A study of Mus musculus with 2 samples.

Results

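Androgen signaling and prostate identity were followed through 7 genes in CE1-4 cells, a line from mouse prostate cancer. They were chosen by name, with earlier results of these data known, as 7 of the 23420 gene symbols counted: the lineage transcription factors Hoxb13 and Foxa1, the androgen-responsive genes Tmprss2 and Fkbp5, the secretory gene Pbsn, the basal cell factor Trp63 and the surface antigen gene Psca. RNA was sequenced from 1 library of untreated cells and 1 library of cells given prostaglandin E2 (PGE2) for 6 h. Both groups share the line, and the labels name no vehicle, no dose, no culture time for the untreated cells and no genotype, hormone supplement or clonal origin of CE1-4. The series belongs to a study of COX-2 in prolactin signaling between tumor and stroma, and asks here which transcripts differ after PGE2.

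The androgen receptor is a nuclear receptor that, once bound by testosterone or dihydrotestosterone, enters the nucleus and activates genes of the prostate epithelium. Foxa1 opens chromatin for it and Hoxb13 helps to select its prostate binding sites. Luminal cells of the normal mouse prostate secrete proteins such as probasin under its control, whereas basal cells depend on p63. Glucocorticoid receptor binds nearly the same DNA motif and can drive part of the same targets, Fkbp5 among them.

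The libraries held 16908429 counts (untreated) and 17582808 counts (PGE2-treated), and levels are given as normalised counts (CPM), where 1 CPM stood for 16.9 and 17.6 counts. Levels of different genes are compared only as CPM per kilobase of annotated exon, and differences between libraries as log2 ratios of treated over untreated CPM with 95% counting intervals. With 1 library per group nothing has a replicate check, no p-value was computed, and the intervals cover counting error only. In bulk RNA, fewer cells that carry a transcript and less of it per cell cannot be told apart.

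Of the 7 genes, 4 were measurable and 3 were near or below detection, in both libraries alike. Tmprss2, Hoxb13, Foxa1 and Fkbp5 exceeded 1 CPM in each library. Psca and Trp63 stayed under 1 CPM, and Pbsn had 0 counts. Per kilobase of exon the untreated order was Tmprss2 (15.4 CPM per kb), Hoxb13 (7.18), Foxa1 (5.83), Fkbp5 (2.54), Psca (0.896) and Trp63 (0.0424). The treated order was the same, at 13.9, 6.89, 6.38, 2.47, 0.725 and 0.0473 CPM per kb. Hoxb13 and Foxa1 were the neighbours in this order that were hardest to separate. The ratio of their levels per kb was 1.23 (counting interval 1.04 to 1.45) in the untreated and 1.08 (0.920 to 1.27) in the treated library, where the interval included 1. The place of Fkbp5 depended on the length used, because its 15 annotated transcripts span 9468 exon bases but the longest single one holds 3858. By the longest transcript Fkbp5 was at 6.23 CPM per kb, and the ratio of Foxa1 over Fkbp5 moved from 2.30 to 0.976 in the untreated library.

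**Figure D1:**
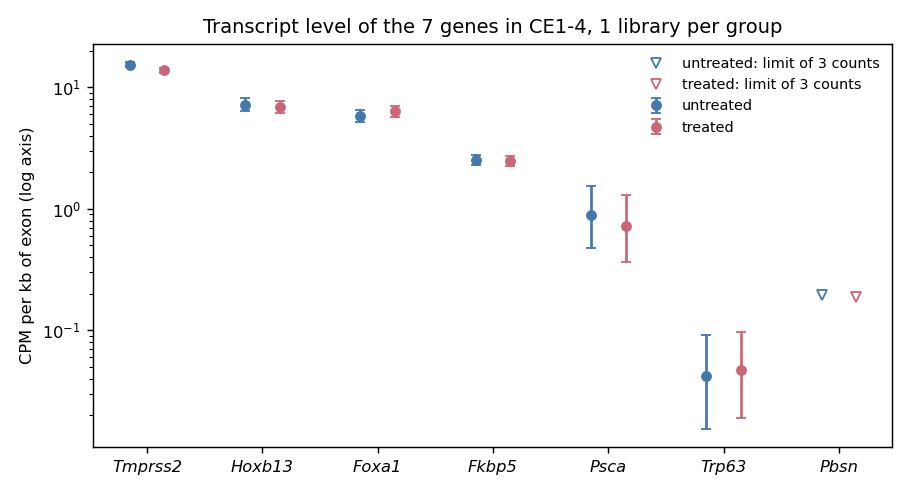
Levels of the 7 genes in CPM per kb of exon on a log axis, for the untreated (blue) and the PGE2-treated (red) library, with exact 95% Poisson intervals for counting error. Open triangles mark the limit that 3 counts set for Pbsn, 0.197 and 0.189 CPM per kb. Tmprss2, Hoxb13, Foxa1 and Fkbp5 sit above 2 CPM per kb and Psca and Trp63 below 1, with each pair of libraries side by side.

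Between the libraries, none of the 4 measurable genes differed by 2-fold, and Tmprss2 was the 1 whose counting interval excluded a ratio of 1. Over all 11387 genes that reached 1 CPM in a library, 6.61% had an interval above 1 and 5.65% below 1. A 2-fold difference whose interval excluded 1 was met by 0.0527% in the higher and 0.255% in the lower direction. Set against that background, 1 of 4 genes below and 0 of 4 above is a count too small to call particular to these genes. Their median log2 ratio was -0.05, beside -0.0014 over all 11387 genes. For all 4 the interval lay within 2-fold in both directions, as it did for 92.4% of those 11387 genes.

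**Figure D2:**
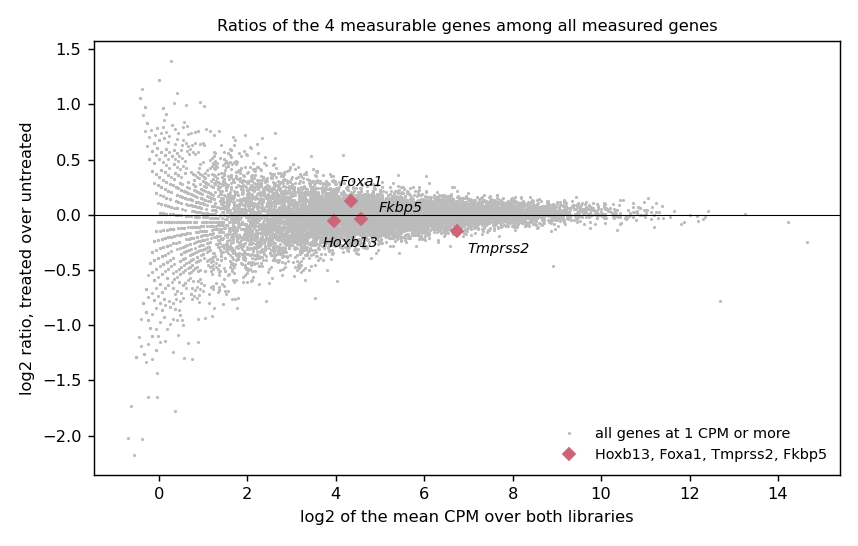
Log2 ratio of treated over untreated CPM against the log2 of the mean CPM for the 11387 genes at 1 CPM or more in a library (grey), with Hoxb13, Foxa1, Tmprss2 and Fkbp5 in red. All of them lie inside the grey cloud, Tmprss2 (-0.15) on its lower side at that level, with Foxa1 (0.13) the highest of them.

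Hoxb13 encodes the homeobox factor of the posterior urogenital tract and prostate, and spans chr11:96194316-96197447 (plus strand, GRCm38, the assembly also called mm10). It had 267 counts untreated and 268 treated, or 15.8 CPM (14.0 to 17.9) against 15.2 CPM (13.4 to 17.1). The log2 ratio was -0.06 (-0.31 to 0.19). The libraries were level within counting error for this gene. Its paralogs Hoxa13, Hoxc13 and Hoxd13, which pattern limb, hair or genital tissue, had 0 counts in both libraries, for which a limit of 3 counts corresponds to 0.178 CPM in the untreated and 0.170 CPM in the treated library. Hoxb13 was therefore the 1 gene of its paralog group with a count.

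Within the Hoxb cluster, which is laid out along the body axis, Hoxb13 stood below Hoxb9 and Hoxb7 by level per kb. Hoxb9 (12.6 CPM per kb untreated) and Hoxb7 (9.33) stood above it, by 1.75-fold (1.51 to 2.03) and 1.30-fold (1.09 to 1.55) in that library. Hoxb4 (2.38 CPM per kb) and Hoxb3 (1.86) followed, and Hoxb1 had 0 counts. Of the 9 other cluster genes 6 reached 1 CPM, and all 6 had an interval that included 1, with log2 ratios from -0.20 to 0.11. Most of all 11387 genes had such an interval too, with 6.61% above 1 and 5.65% below. Among the cofactors that bind DNA with Hox proteins, Pbx2 was at 5.28 CPM per kb untreated, Pbx3 at 2.08 and Meis1 at 1.78.

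Foxa1 encodes a forkhead pioneer factor and spans chr12:57540628-57546916, minus strand. It had 327 counts untreated and 374 treated, 19.4 CPM (17.3 to 21.6) and 21.2 CPM (19.1 to 23.5). The treated value was the higher one, with a log2 ratio of 0.13 (-0.09 to 0.35) whose interval included 1. Foxa2, a relative tied to endoderm and to neuroendocrine prostate tumors, had 65 and 47 counts, a log2 ratio of -0.53 (-1.11 to 0.03). The ratio of Foxa1 over Foxa2 per kb was 3.58 (2.74 to 4.75) in the untreated and 5.67 (4.18 to 7.85) in the treated library. These intervals overlap, but each ratio lay outside the interval of the other library. The overlap does not show that counting error covers the shift. No interval was computed for the change in this ratio, so it was not tested. Foxa3 had 2 and 0 counts.

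Other factors of the prostate epithelium were uneven. Gata3, a luminal zinc finger factor, was at 11.7 CPM per kb untreated, and Tbx3, a T-box factor, at 12.5. Sox9 (5.01 CPM per kb), Klf5 (2.75) and Gata2 (2.71), a cofactor of androgen receptor in human prostate cells, were lower. Grhl2 and Spdef, epithelial factors often found with Foxa1, had 0 counts in both libraries, as did Erg. Of the 23 lineage factors besides Hoxb13 and Foxa1, 13 reached 1 CPM, 1 with an interval above 1 and 3 below, beside 6.61% above and 5.65% below over all genes. Etv5, an ETS factor, was the higher one (90 and 126 counts, log2 ratio 0.42, 0.02 to 0.83). The lower ones were Elf5 (86 and 63 counts, -0.51, -1.01 to -0.03), Tbx3 (-0.14, -0.25 to -0.03) and the nuclear factor I gene Nfib (-0.13, -0.23 to -0.03). None of these 4 intervals excluded 1 at the 99% level.

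Tmprss2 encodes a serine protease anchored in the luminal cell membrane and is a classical androgen target whose human promoter is fused to ERG in many prostate cancers. The gene spans chr16:97564682-97611195, minus strand. It had 1891 counts untreated and 1786 treated, 112 CPM (107 to 117) and 101 CPM (96.7 to 106). The untreated library was higher and the intervals of the levels did not overlap. The log2 ratio was -0.15 (-0.24 to -0.05), and the interval stayed below 1 under every scaling tried and at the 99% level. Among the 1684 genes whose counts in both libraries together lay within 1.5-fold of those of Tmprss2, log2 ratios had a standard deviation of 0.070, against 0.048 from counting error alone. Of those genes 5.70% had an interval below 1 and 10.7% above. The Tmprss2 difference exceeded that standard deviation, and the spread of these genes was wider than counting alone gives, so its interval is too narrow by an unknown amount.

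Tmprss2 was far more abundant than its relatives. Of 11 other Tmprss genes 5 had 0 counts in both libraries and 1 reached 1 CPM, Tmprss11f (22 and 36 counts). St14, which encodes matriptase, a protease that TMPRSS2 can activate in human prostate cancer cells, had 25 and 17 counts. Hpn, encoding hepsin, and Prss8, encoding prostasin, had 0. The membrane-bound Kunitz inhibitors of these proteases were present at 5.15 CPM per kb for Spint2 and 0.986 for Spint1 (untreated), so Tmprss2 stood 2.98-fold (2.67 to 3.33) above Spint2. The secreted urokinase gene Plau was the most abundant protease listed, at 109 CPM per kb untreated (log2 ratio 0.05, -0.0071 to 0.11). Its interval lay above 1 under 3 of the 4 other scalings.

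Fkbp5 encodes FKBP51, an HSP90 co-chaperone that modulates steroid receptors and is induced by androgens, glucocorticoids and progestins. The gene spans chr17:28399094-28517527, minus strand. It had 405 counts untreated and 413 treated, or 24.0 CPM (21.7 to 26.5) against 23.4 CPM (21.2 to 25.8). The log2 ratio was -0.04 (-0.24 to 0.17). The libraries were level within counting error. Fkbp4, encoding the related FKBP52 that favours hormone binding of the receptor, was 15.2-fold (13.6 to 17.0) above Fkbp5 per kb untreated and 15.7-fold (14.2 to 17.6) treated. By longest transcripts these ratios were 6.46 and 6.70. Of the 14 other FK506-binding protein genes 10 had a level per kb above that of Fkbp5 in the untreated library, or 7 by longest transcripts. All 11 of them that reached 1 CPM had an interval that included 1, as did most of all 11387 genes (6.61% above and 5.65% below).

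The receptor for glucocorticoids had the most abundant transcript per kb of the 6 steroid receptor and related genes listed. Nr3c1, which encodes it, was at 24.3 CPM per kb untreated (3152 and 3382 counts, log2 ratio 0.04, -0.03 to 0.11). Nr3c2, the mineralocorticoid receptor gene, had 205 counts in each library and Esr1, for estrogen receptor alpha, 91 and 85. Pgr and Esr2 were scarce, with 11 and 7 counts in each library. Besides Fkbp5, 12 genes that androgens and glucocorticoids both induce were listed, and all 10 that reached 1 CPM had an interval that included 1. That is near the background, since only 6.61% of all 11387 genes lay above 1 and 5.65% below. Sgk1, a kinase gene, was at 55.6 CPM per kb untreated (log2 ratio -0.02, -0.08 to 0.04) and Tsc22d3, encoding GILZ, at 4.28 (-0.05, -0.29 to 0.18). Zbtb16 had 0 counts in both. With Fkbp5, the median log2 ratio of the 11 measurable genes was -0.03.

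The wider set of androgen response genes was mostly present. Of 41 genes, Fkbp5 and Tmprss2 among them, 36 reached 1 CPM, 2 with an interval above 1 and 3 below, and the median log2 ratio was -0.02. Aldh1a3, a retinaldehyde dehydrogenase, was higher in the treated library (90.3 CPM and 108 CPM, log2 ratio 0.25, 0.16 to 0.35), as was Mboat2, a lysophospholipid acyltransferase (300 and 375 counts, 0.26, 0.03 to 0.48). Besides Tmprss2, Sord, encoding sorbitol dehydrogenase (-0.19, -0.35 to -0.03), and Ndrg1 (-0.08, -0.13 to -0.03) were lower. The most abundant members per kb were Dbi (80.3 CPM per kb untreated), Ndrg1 (54.7), Pmepa1 (51.0) and Tmem50a (34.4), followed by Steap1 (30.0), a metalloreductase relative found on human prostate tumors. Spdef and Azgp1 had 0 counts. At the 99% level 1 of the 36 had an interval above 1 and 2 below. Of 11387 genes, as given above, 6.61% lay above and 5.65% below, so these counts are near the background.

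**Figure D3:**
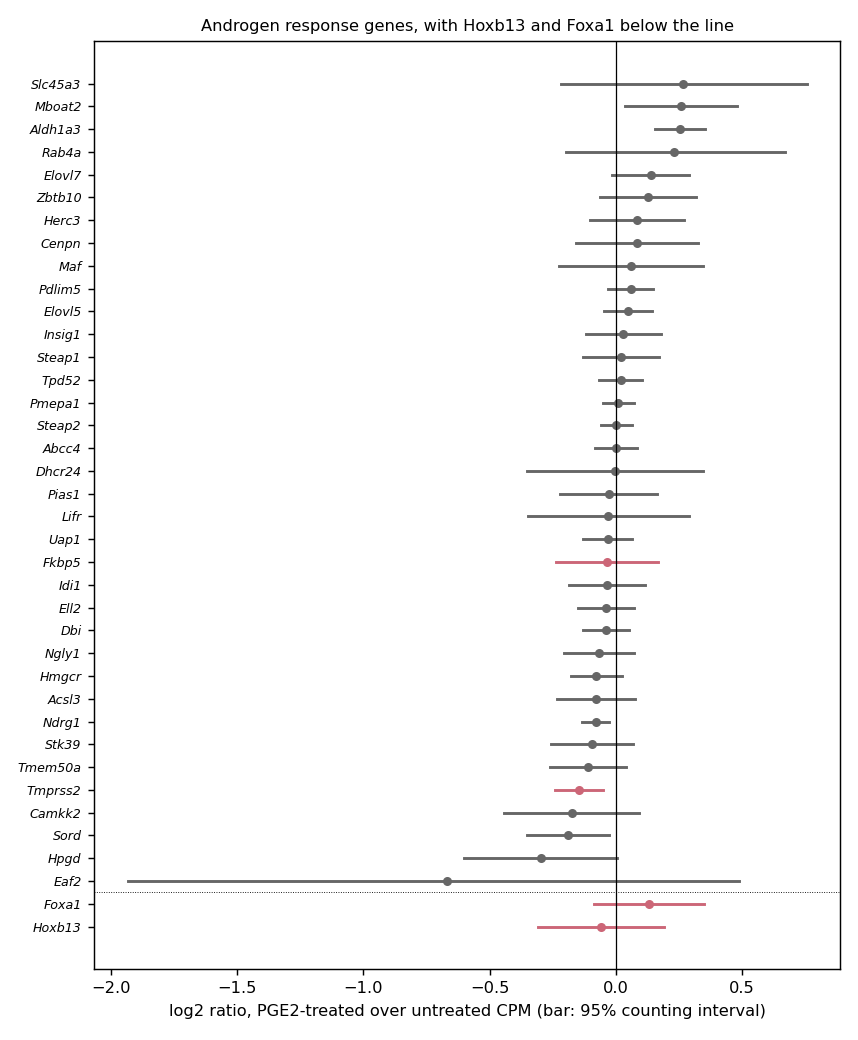
Log2 ratios of treated over untreated CPM, with 95% counting intervals, for the 36 androgen response genes at 1 CPM or more and, below the dotted line, Foxa1 and Hoxb13. Red marks Tmprss2, Fkbp5, Foxa1 and Hoxb13. Most intervals cross 0, Aldh1a3 and Mboat2 lie to the right and Tmprss2, Sord and Ndrg1 to the left.

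Pbsn encodes probasin, a lipocalin secreted by mouse prostate lumina, and its promoter is the standard driver of prostate-restricted transgenes. The gene spans chrX:77837901-77853623, minus strand. No count fell on Pbsn in either library, so its level could lie anywhere below 0.178 CPM (untreated) or 0.170 CPM (treated). Of the 30 other secretory genes measured, 18 also had 0 counts in both libraries. Among them were Msmb, Sbp, Spink3, all 6 seminal vesicle secretory genes and the 3 kallikrein genes Klk1, Klk1b1 and Klk1b27. Of the 30, 3 reached 1 CPM: the zinc transporter gene Slc30a4 (3129 and 3478 counts, log2 ratio 0.09, 0.02 to 0.16), Tgm4, the prostate transglutaminase (214 and 249 counts, 0.15, -0.12 to 0.42), and Gm5077, a synonym of the complement protease gene C1s2 (27 and 20 counts). Tgm4 was thus the 1 gene with a product largely restricted to prostate secretion that was measurable, at 2.79 CPM per kb untreated. Slc30a4 was the 1 of the 3 with an interval above 1, beside 6.61% of all 11387 genes. At the 99% level the interval of Slc30a4 included 1. Of the 18 other lipocalin genes 12 had 0 counts, and Orm1 alone reached 1 CPM (36 and 38 counts).

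The proximal promoters of Pbsn, with no count, Tmprss2, the most abundant of the 7 genes, and Foxa1 are shown because they set the gene without counts beside measurable ones. Each is the RefSeq window of GRCm38.p6 from 250 bases before to 50 bases after a transcript start, 5′ to 3′ on the gene's own strand, which is the minus strand for all 3. Capitals mark matches, on either strand, to the steroid receptor half-site AGAACA, the forkhead motif TGTTTAC, the Hoxb13-type motif CCAATAAA or the TATA box TATAAA. The half-site is only a part of a full receptor site, and full sites were not searched. The windows are chrX:77853451-77853750, chr16:97611146-97611445 and chr12:57546062-57546361.
Pbsn: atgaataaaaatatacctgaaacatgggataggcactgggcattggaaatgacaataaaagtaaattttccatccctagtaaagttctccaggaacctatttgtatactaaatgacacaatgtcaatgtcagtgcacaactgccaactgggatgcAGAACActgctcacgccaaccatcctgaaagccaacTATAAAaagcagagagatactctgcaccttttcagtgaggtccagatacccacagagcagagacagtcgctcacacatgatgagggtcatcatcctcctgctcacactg
Tmprss2: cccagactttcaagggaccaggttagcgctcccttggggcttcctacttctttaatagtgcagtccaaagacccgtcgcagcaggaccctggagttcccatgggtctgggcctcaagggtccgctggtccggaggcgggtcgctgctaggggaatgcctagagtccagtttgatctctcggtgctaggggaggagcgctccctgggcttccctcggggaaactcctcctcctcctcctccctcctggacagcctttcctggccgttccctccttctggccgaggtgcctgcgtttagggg
Foxa1: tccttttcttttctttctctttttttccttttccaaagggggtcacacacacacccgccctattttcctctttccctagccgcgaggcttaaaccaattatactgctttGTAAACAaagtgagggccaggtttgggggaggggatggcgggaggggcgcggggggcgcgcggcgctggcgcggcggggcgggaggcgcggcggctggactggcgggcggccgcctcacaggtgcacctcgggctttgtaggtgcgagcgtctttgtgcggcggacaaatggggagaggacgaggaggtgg

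The Pbsn window held AGAACA from position -95 and TATAAA from position -59, counted from the start site, and 43.3% of its bases were G or C. Of 32851 RefSeq windows of that length 19% held AGAACA and 13.6% TATAAA on either strand. The Foxa1 window, 62.3% G or C, held GTAAACA, the forkhead motif on the other strand, from position -141, and 3.65% of windows held that motif. The Tmprss2 window, also 62.3% G or C, and the Fkbp5 window, at 70.7%, held none of the 4 motifs, and none of these 4 windows held CCAATAAA, present in 1.12%. A match describes letters and no site of binding, and no match concerns this window only. Windows were found for 4 of the 7 genes, and the positions depend on the transcript start taken. The starts used for Pbsn, Foxa1 and Fkbp5 lie inside the gene spans given in the text. That of Tmprss2 is the first base of its span on the gene's own strand.

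Trp63 encodes p63, the p53 relative required for basal cells and, in mice, for the formation of the prostate. The gene spans chr16:25683763-25892102, plus strand. It had 6 counts untreated and 7 treated, 0.356 CPM (0.131 to 0.774) and 0.397 CPM (0.160 to 0.818). Both libraries were near the detection limit and the log2 ratio, 0.15 (-1.64 to 2.01), was not resolved. Its relatives were Trp53, at 467 and 461 counts (log2 ratio -0.08, -0.27 to 0.11), and Trp73, with 0. Per kb, Trp53 was 161-fold (73.6 to 442) above Trp63 in the untreated library.

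Genes usually found with p63 in basal cells were at mixed levels. Krt5, the keratin of basal cells, had 0 and 2 counts and the nerve growth factor receptor gene Ngfr had 0. Krt14 was at 7.59 CPM per kb untreated (225 and 279 counts, log2 ratio 0.25, -0.01 to 0.51), Krt15 at 3.59 and the hemidesmosome linker gene Dst at 14.8. Of 19 basal genes besides Trp63, 13 reached 1 CPM, and Itga6, an integrin gene, was the 1 with an interval away from 1 (log2 ratio 0.14, 0.06 to 0.21). Over all 11387 genes 6.61% had an interval above 1 and 5.65% below, so 1 of 13 is near that background. Perp, a p63 target of desmosomes in skin, was at 136 CPM per kb (0.07, 0.01 to 0.13). Luminal keratin genes were far higher per kb, with Krt8 at 642, Krt18 at 528 and Krt19 at 298 CPM per kb untreated.

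Psca encodes prostate stem cell antigen, a small glycoprotein of the Ly6 family held at the surface by a lipid anchor. The gene spans chr15:74714839-74717069, plus strand. It had 13 counts untreated and 11 treated, or 0.771 CPM (0.410 to 1.32) against 0.624 CPM (0.311 to 1.12). The log2 ratio was -0.29 (-1.61 to 0.97). No difference was detectable at this depth.

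The contrast within the family was wide. Ly6a, which encodes Sca-1 and marks a prostate cell fraction rich in progenitors in mice, was at 796 CPM per kb untreated and 751 treated, rank 20 of all genes with an exon length in the untreated library. Per kb it was 888-fold (519 to 1668) above Psca in that library and 1035-fold (578 to 2073) in the treated one. Ly6e (55.2 CPM per kb), Ly6c1 (40.8) and the urokinase receptor gene Plaur (21.8) were also abundant, while Ly6d, a marker of castration-resistant luminal progenitors, had 4 and 3 counts. Of the 25 other Ly6 and uPAR genes measured 8 reached 1 CPM, and 5.65% of all genes had an interval below 1. An interval below 1 was seen for 3 of the 8, Ly6a (log2 ratio -0.08, -0.12 to -0.05), Ly6c1 (-0.21, -0.33 to -0.09) and Ly6e (-0.07, -0.14 to -0.00051), the last of which included 1 under 3 of the 4 other scalings. The sequences of Ly6a, Ly6c1 and their neighbours are alike, and the sources used here do not say how shared reads were assigned, so their values are uncertain.

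**Figure D4:**
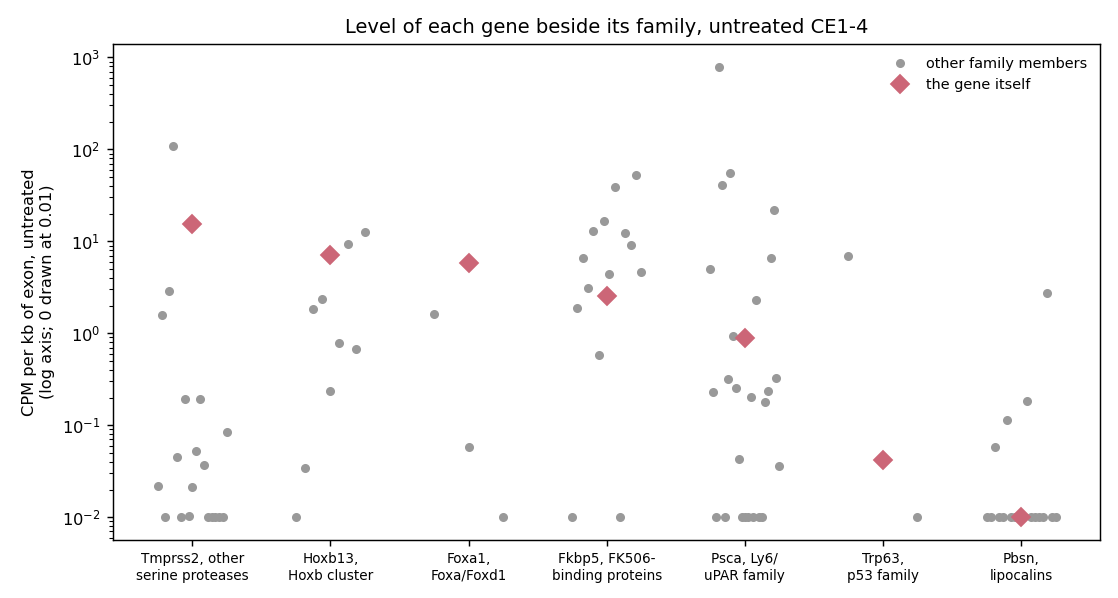
Untreated level in CPM per kb of exon, on a log axis, of each gene (red diamond) beside the listed relatives (grey points), with 0 counts drawn at 0.01. Hoxb13 and Foxa1 stand near the top of their groups, Tmprss2 stands below Plau, Psca and Trp63 lie far below Ly6a and Trp53, and Pbsn is at 0 with most lipocalins.

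Other genes tied to luminal progenitors or stem cells also split between abundant and absent. Prom1 had 1 and 3 counts, Lgr5 3 in each library, and Kit and Sox2 had 0. Clu was at 62.0, Cd44 at 55.6 and the Polycomb gene Bmi1 at 45.9 CPM per kb untreated. Of 25 genes in this list, Psca included, 17 reached 1 CPM, 3 with an interval above 1 and 5 below, beside 6.61% and 5.65% of all genes. At the 99% level 3 were above and 3 below. The higher ones were Itga6, given above, Krt7 (log2 ratio 0.11, 0.04 to 0.17) and Bmi1 (0.10, 0.03 to 0.17). The lower ones were Ly6a and Ly6c1, given above, Clu (-0.12, -0.18 to -0.05), Cd44 (-0.06, -0.11 to -0.01) and Aldh1a1 (-0.17, -0.34 to -0.007). The interval of Aldh1a1 included 1 under 3 of the 4 other scalings. The median log2 ratio of the 17 genes was 0.10. Of genes with counts near those of Tmprss2, 10.7% had an interval above 1 and 5.70% below, so the share of all genes is not a like background for abundant genes.

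The chaperone machinery that holds steroid receptors ready for hormone was present throughout. All 16 listed genes reached 1 CPM, 6 with an interval above 1 and 1 below, beside 6.61% and 5.65% of all genes, and their median log2 ratio was 0.02. Ptges3, encoding p23, and Ahsa1, an HSP90 activator, each had a log2 ratio of 0.16 (0.13 to 0.20 and 0.07 to 0.25). Hsp90aa1 followed with 0.12 (0.10 to 0.14), Ppid with 0.09 (0.01 to 0.17), Hspa4 with 0.04 (0.01 to 0.07) and Hspa8 with 0.04 (0.02 to 0.05). Stip1, the adaptor between HSP70 and HSP90, was lower (-0.06, -0.11 to -0.01). Untreated levels of these 7 genes ran from 101 CPM for Ahsa1 to 5381 CPM for Hspa8. The count above 1 was 7 under 3 of the 4 other scalings and 4 with totals computed without Rn45s, Lars2 and Malat1, where Hspa4 and Ppid included 1. At the 99% level 4 were above and 0 below. Counting intervals narrow as counts rise. Of genes with counts near those of Tmprss2, 10.7% lay above 1 and 5.70% below. The share of all genes is thus not a like background for abundant genes, and a difference of this list from genes of like abundance was not tested.

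Coregulators of steroid receptors were present throughout. Each of the 20 listed genes reached 1 CPM, with Ncoa4, also a ferritin receptor, the most abundant at 28.8 CPM per kb untreated. Ncoa4 was also the 1 with an interval above 1 (log2 ratio 0.06, 0.0001 to 0.12), which included 1 when totals left out the 3 abundant genes. Among enzymes that make or clear androgens, 12 of 23 reached 1 CPM, and Hsd3b7, a bile acid enzyme in liver, was the 1 with an interval away from 1 (775 and 715 counts, -0.18, -0.33 to -0.03). Both counts, 1 of 20 coregulators above and 1 of 12 enzymes below, are near the 6.61% above and 5.65% below of all genes. Of the enzymes that turn testosterone into dihydrotestosterone, Srd5a1 had 80 and 103 counts (0.30, -0.14 to 0.74) and Srd5a2, the main form of the prostate, 0 and 1. Cyp17a1, needed to make androgens from cholesterol, had 2 counts in each library.

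Likeness of pattern could not be measured over 2 libraries, so the nearest listed genes by mean log2 level per kb were taken. These were Aldh1a1 and the metallothionein gene Mt1 for Hoxb13, Fkbp14 and Hpgd for Foxa1, Dst and Cdkn1a for Tmprss2, and Ep300 and Ncoa1 for Fkbp5. All differed from the respective gene by at most 0.070 in that mean.

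The line's label as prostate cancer cells was set beside defining markers. Luminal markers Krt8, Krt18, Krt19 and Cd24a were abundant and Cdh1 was at 29.7 CPM per kb untreated, while Epcam had 31 and 25 counts and Dpp4 had 0. Of the luminal list 11 of 14 reached 1 CPM and 4 had an interval above 1, beside 6.61% of all genes. These were Krt19 (log2 ratio 0.08, 0.04 to 0.12), Cdh1 (0.08, 0.0016 to 0.17), Krt18 (0.04, 0.0028 to 0.07) and Cd24a (0.04, 0.0069 to 0.06). With totals that left out the 3 abundant genes only Krt19 of these 4 kept such an interval, as at the 99% level, while the 3 other scalings gave 5 above. The list's median log2 ratio was -0.06, equal to the log2 ratio of Hoxb13, so it is no separate value. Of its 11 ratios 6 were below 1. Intervals above 1 were commoner among abundant genes, at 10.7% of genes with counts near those of Tmprss2. Lists for other cell types differed widely in summed level. Endothelial genes summed to 0.119 CPM untreated and 0.227 treated with Cdh5 at 0, and leukocyte genes to 4.45 and 3.97 CPM, nearly all from Cd68, with Ptprc at 0 and 1 count. Smooth muscle genes summed to 4.98 and 5.16 CPM with Des at 0 and 1 count. Fibroblast genes summed to 157 and 153 CPM, of which Col6a1 gave 142 and 140, with Lum and Thy1 at 0. Neuroendocrine genes summed to 619 and 616 CPM, of which Ncam1, an adhesion molecule gene, gave 599 and 596, with Chga and Insm1 at 0. Per kb Ncam1 was at 69.1 CPM untreated. Of the urothelial genes, Upk1b, Upk2 and Upk3a were at 0 and Krt13 had 397 and 390 counts, nearly all of the list's 24.0 and 23.0 CPM. The part of these markers in the results was not tested.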

How the data were processed

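Stranded total RNA libraries of CE1-4 cells, 1 untreated and 1 treated with PGE2 for 6 h, were deposited by the authors as raw counts per gene symbol without normalization. Tools named in the submitters' processing notes are HTSeq, TopHat2, Bowtie and Trimmomatic, with build mm10. The sources used here give no version, annotation, strand setting or handling of shared reads. No exon of the 7 genes overlapped an exon of another annotated gene.

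Counts were scaled with edgeR 4.0.16 (TMM) in R 4.3.3. Log2 ratios used a prior of 0.5 counts, with 95% Clopper-Pearson intervals, and levels exact Poisson intervals (scipy 1.17.1 in Python 3.11.15). A count of 0 was given a limit of 3 counts. All cover counting error only. Ratios were read for genes at 1 CPM or more in a library. The computation was tested on simulated counts that held counting error only, as the intervals assume. That test therefore does not bear on spread beyond counting error. Exon lengths and coordinates came from GENCODE M21 (99.3% of the 11387 genes) and promoters from RefSeq. Alternatives were other scalings, among them DESeq2 1.42.0, a prior of 5, other minimums, a 99% level and other lengths.

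The 7 genes and 25 further gene lists (381 of 384 symbols matched, 2 through synonyms) were chosen with earlier results of these data known. Named genes were the 7, their relatives, list members with an interval away from 1 and the most abundant members. Other genes of these lists, mostly those at 0 counts, were chosen after their values were seen. Some genes of these lists are not reported here.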

Additional observations from a re-analysis of the deposited data

How the results depend on the processing

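No paired analysis was possible because each group holds 1 library, so no replicate could be left out either. The log2 ratios of Hoxb13, Foxa1, Tmprss2 and Fkbp5 kept their direction in all 20 combinations of gene and alternative (4 other scalings and a prior of 5 counts). Their ranges were -0.07 to -0.05, 0.12 to 0.14, -0.16 to -0.14 and -0.04 to -0.03. The interval excluded 1 for Tmprss2 alone throughout. Each scaling moved all genes by nearly the same small step (all-gene medians from -0.0102 to 0.0065), and the prior does not enter the interval. This stability was thus nearly fixed in advance and is no check of the ratios. The 35 genes past the 2-fold rule became 13 with a prior of 5, 83 without any minimum, 1 when 5 CPM were required and 15 at the 99% level, and the 1396 genes with an interval away from 1 became 668 at that level. By longest transcript the untreated level of Tmprss2 was 20.4 and of Fkbp5 6.23 CPM per kb. By coding length the untreated levels were 76.3 for Tmprss2, 18.5 for Hoxb13, 17.6 for Fkbp5, 13.8 for Foxa1, 2.09 for Psca and 0.174 for Trp63, all in CPM per kb. Lengths set these shifts by construction, and Fkbp5 then lies above Foxa1. Depth limits Psca, Trp63 and Pbsn, for which 1 CPM was 16.9 to 17.6 counts.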
